A study of Mus musculus with 18 samples.

Results

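The CC chemokines described here are Ccl2, Ccl3, Ccl4, Ccl5, Ccl6, Ccl7, Ccl8, Ccl9, Ccl12 and Ccl24, 10 named ligand genes out of the 18668 genes with an expression value in bone marrow-derived macrophages (BMDM) that had been exposed to oxidized low-density lipoprotein (oxLDL). The genes were taken by name, and all 10 had a row. The cells were grown from bone marrow of C57BL6 mice in M-CSF, the growth factor that drives macrophage differentiation. Every group lacked the apolipoprotein E gene: 9 libraries were Apoe-/- and 9 were Apoe-/-/Treml4-/- (DKO), the latter also lacking the myeloid receptor gene Treml4. Within each genotype, 3 libraries were untreated (PBS vehicle), 3 had received oxLDL at 10 µg/ml and 3 had received oxLDL at 60 µg/ml. Both deletions are carried by every cell of the animal, the DKO line came from a cross of the single knockouts, and the sex and age of the donors of these cultures are not stated in the labels. The sources differ on how long oxLDL was left on the cells, and one protocol label describes LPS, which no group label names.

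Chemokines are small secreted proteins that draw leukocytes along a concentration gradient by binding G protein-coupled receptors. The CC class, named for its pair of adjacent cysteines, acts mainly on monocytes, macrophages, T cells, eosinophils and basophils. In atherosclerosis, CC chemokines made by lesional macrophages, endothelium and smooth muscle cells help to bring blood monocytes into the artery wall, where uptake of oxLDL turns macrophages into foam cells. The members fall into the monocyte chemoattractant proteins Ccl2, Ccl7, Ccl8 and Ccl12, of which Ccl2, Ccl7 and Ccl12 act through Ccr2, the macrophage inflammatory proteins Ccl3 and Ccl4 together with Ccl5 (RANTES), which draw monocytes and T cells, the myeloid ligands Ccl6 and Ccl9, which bind Ccr1, and the eosinophil ligand Ccl24 (eotaxin-2), which binds Ccr3.

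Of the 10 genes, 9 lie on chromosome 11 in RefSeq's annotation of GRCm38.p6. Ccl2 (chr11:82035577-82037452), Ccl7 (chr11:82045712-82047525), Ccl12 (chr11:82101845-82103399) and Ccl8 (chr11:82115185-82116799) span 81.2 kb. After a gap of 1.41 Mb, Ccl5 (chr11:83525778-83530518), Ccl9 (chr11:83572917-83578636), Ccl6 (chr11:83587886-83593087), Ccl3 (chr11:83647843-83649378) and Ccl4 (chr11:83648624-83664683) span 139 kb. Ccl24 lies apart, at chr5:135569935-135573123. The annotated range of Ccl4 runs over part of Ccl3, on the opposite strand, whereas in GENCODE's annotation their ranges do not meet. The sources used here do not state whether the counting used strand, and whether reads were shared between these neighbours was not tested.

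Promoter sequence was at hand for 5 members, Ccl3, Ccl6, Ccl8, Ccl9 and Ccl12 (RefSeq, GRCm38.p6). The 4 printed here belong to genes that behaved differently in the libraries: Ccl3 and Ccl9 fell with oxLDL, Ccl6 was not called, and Ccl12 varied with Ccl2 between replicates. Each line runs 5′ to 3′ on the gene's own strand, from 150 bases before the annotated start to 50 bases after it. Capitals mark letters that match a TATA box (TATAAA, searched on the gene's strand only), a loose AP-1-like pattern (TGANTCA) or an NF-kappaB element (kappaB). The last pair was searched on both strands, and N stands for any base. The windows are chr11:83649329-83649528, minus strand, for Ccl3, chr11:83578587-83578786, minus strand, for Ccl9, chr11:83593038-83593237, minus strand, for Ccl6 and chr11:82101695-82101894, plus strand, for Ccl12.
Ccl3: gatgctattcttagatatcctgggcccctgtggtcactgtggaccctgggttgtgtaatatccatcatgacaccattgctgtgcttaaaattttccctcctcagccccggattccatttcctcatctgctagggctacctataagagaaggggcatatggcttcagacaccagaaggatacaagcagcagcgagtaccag
Ccl9: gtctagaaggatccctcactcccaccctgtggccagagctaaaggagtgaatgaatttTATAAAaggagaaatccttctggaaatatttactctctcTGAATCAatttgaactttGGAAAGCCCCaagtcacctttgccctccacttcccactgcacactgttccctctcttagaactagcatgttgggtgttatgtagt
Ccl6: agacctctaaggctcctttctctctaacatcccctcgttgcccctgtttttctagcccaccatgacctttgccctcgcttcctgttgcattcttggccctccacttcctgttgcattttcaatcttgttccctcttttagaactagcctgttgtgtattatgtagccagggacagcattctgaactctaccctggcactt
Ccl12: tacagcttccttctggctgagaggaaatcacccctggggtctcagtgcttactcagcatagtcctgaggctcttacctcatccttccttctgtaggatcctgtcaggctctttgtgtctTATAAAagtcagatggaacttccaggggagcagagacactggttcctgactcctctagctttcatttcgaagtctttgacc
In Ccl9 the 3 matches were TATAAA at -92 to -87, TGANTCA at -53 to -47 and a kappaB match on the opposite strand at -35 to -26, counted from the annotated start. In Ccl12 the match was TATAAA at -31 to -26, and Ccl8 had TATAAA at -32 to -27. Ccl3 and Ccl6 had none of these letters in the window. Among all 32851 promoter windows of 300 bases, TATAAA was found in 8.32%, TGANTCA in 7.81% and kappaB in 8.46%. The closest likeness among the 5 windows was between neighbours Ccl6 and Ccl9, in which 41 of 60 aligned bases were identical (68.3%). The best stretch of the other pairs reached 46.7% to 53.3%. The aligned stretch runs from -45 to 14 in Ccl6 and from -11 to 48 in Ccl9, so in Ccl9 it lies mostly past the annotated start. A match of letters is a description of the window and not evidence of a bound factor.

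Expression is given as RPKM (reads per kilobase of transcript scaled to the mapped reads of the library), which corrects for gene length and library depth. The libraries held about 39.7 M to 54.2 M reads as judged from the steps between low values, so that 3 reads over 1 kb came to 0.0554 to 0.0755 RPKM. Treml4 stood at 1.86 to 8.39 RPKM in the Apoe-/- libraries and at 0 in 8 of the 9 DKO libraries (0.0116 in the other). Apoe itself was read at a low level in all 18 libraries, at 0.937 to 4.13 RPKM in Apoe-/- and 0.349 to 1.39 RPKM in DKO. All 7 macrophage markers (Adgre1, Cd68, Csf1r, Itgam, Lyz2, Mertk, Fcgr1) were at or above 1 RPKM in every library, whereas 4 dendritic cell markers summed to at most 0.358, 3 T cell markers to at most 0.169 and 3 B cell markers to at most 0.0676 RPKM. Mast cell and basophil markers (3 with a row) summed to at most 0.277 RPKM and 2 eosinophil markers to at most 1.37. Neutrophil and stromal markers were higher, at up to 70.7 and 13.1 RPKM in sum, and are described below. In each genotype the libraries of 1 replicate number, 2 in Apoe-/- and 3 in DKO, held the female transcript Xist (7.25 to 14.5 RPKM, at most 0.0690 elsewhere) and almost no Y-linked transcripts, at all 3 treatments. These 6 libraries are called Xist-positive below, and some results are also given without them.

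Ccl9 and Ccl2 were the most abundant members, and Ccl8 and Ccl24 were close to the limit of detection. Summed over the 10 genes, the signal was 1090 ± 36.3 RPKM (SD, n = 3 here and for each group below) in untreated Apoe-/- macrophages, 903 ± 173 with oxLDL 10 and 637 ± 108 with oxLDL 60. The same sum was 1362 ± 279, 1132 ± 369 and 740 ± 181 RPKM in DKO. Ccl2 and Ccl9 together gave 59.4% to 73.9% of it, and all 10 genes gave 0.140% to 0.425% of the RPKM of a library. In untreated Apoe-/- cells the order by mean was Ccl9, Ccl2, Ccl3, Ccl6, Ccl4, Ccl7, Ccl5, Ccl12, Ccl8 and Ccl24. The replicates of Ccl2 and Ccl3 overlapped in that order, as did those of Ccl5 and Ccl12, and all other neighbours were apart. With oxLDL 60 the replicates of Ccl2 and Ccl9 overlapped in both genotypes. The 10 panels of RPKM by group show each library.

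**Figure D1:**
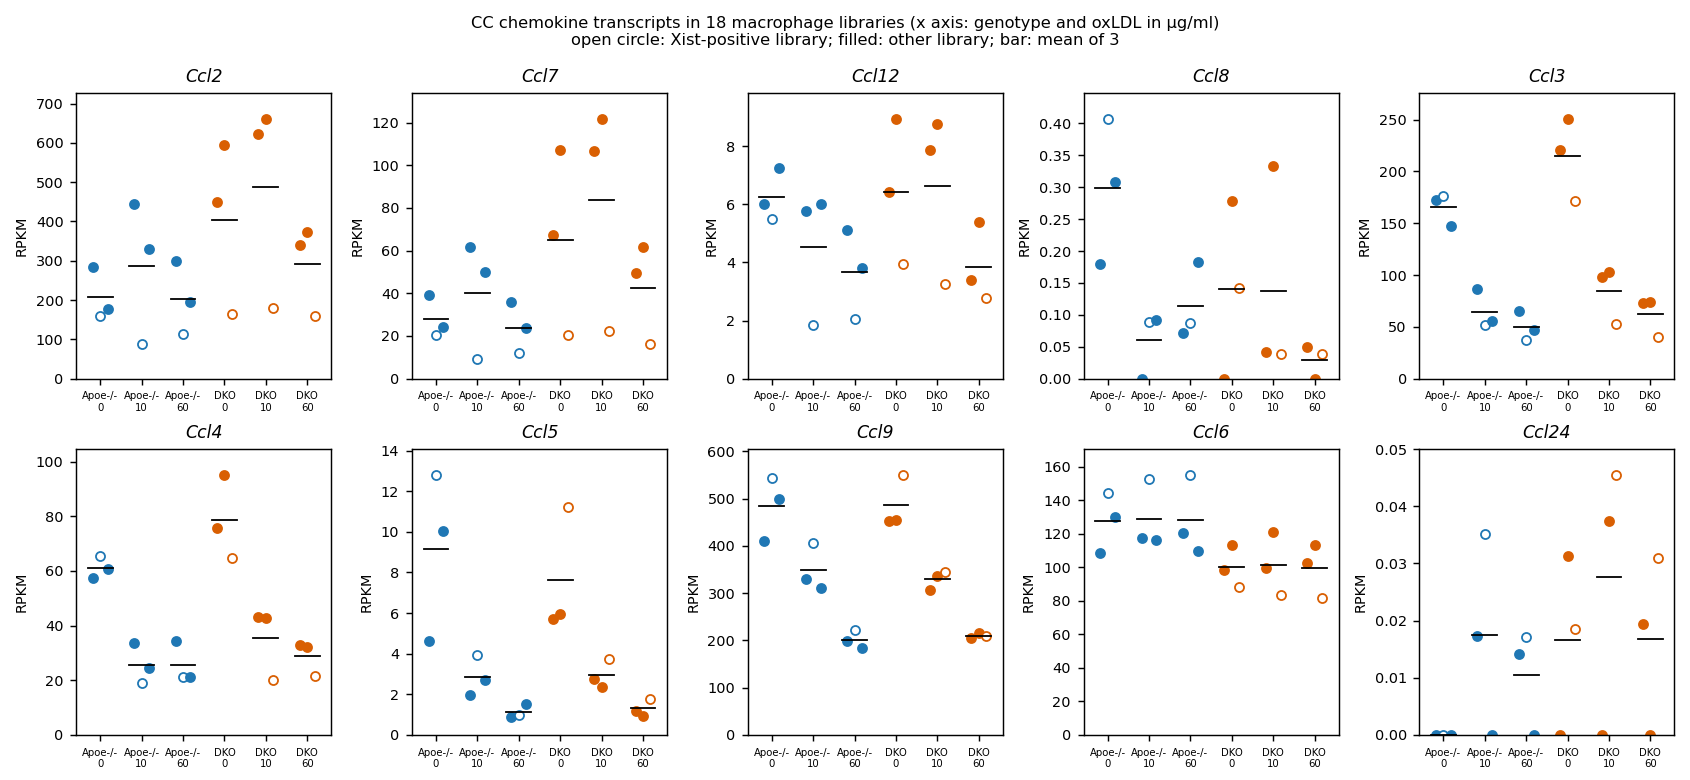
RPKM (y axis, linear, from 0) of each CC chemokine in 18 libraries, by genotype (blue, Apoe-/-; orange, DKO) and oxLDL in µg/ml. Points are libraries, open circles are the Xist-positive ones and bars are means of 3; Ccl3, Ccl4, Ccl5 and Ccl9 step down with oxLDL in both genotypes, Ccl6 stays level, and the open circle is the lowest point of Ccl2, Ccl7 and Ccl12 in all 6 groups.

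Exposure to oxLDL lowered a subset of the members, and none rose past the test. A gene was called when limma, fitted to log2(RPKM + 0.1) of all 12838 genes that reached 0.1 RPKM in at least 3 libraries, gave an adjusted p under 0.05 and a change of at least 1.4-fold. Of the 10 members, 9 passed that filter (all but Ccl24). In Apoe-/- macrophages 3 of the 9 were called lower with oxLDL 10 (Ccl3, Ccl4 and Ccl5), where 2.04% of all genes tested were called lower and 0.748% higher. With oxLDL 60, 4 of the 9 were called lower (Ccl3, Ccl4, Ccl5 and Ccl9), against 6.78% of all genes lower and 7.13% higher. In DKO macrophages 3 members were called lower with oxLDL 10 (Ccl3, Ccl4 and Ccl9), against a background of 1.69% lower and 0.569% higher. With oxLDL 60 the same 4 genes as in Apoe-/- were called lower in DKO, against 7.31% lower and 4.87% higher. The median change with oxLDL 60 over the 9 members was -0.89 on the log2 scale in Apoe-/- and -0.71 in DKO. Over all genes tested the medians were 0.06 and -0.06. In both genotypes the member median was the value of Ccl8, which had only a handful of reads. The member nearest to it, Ccl12, stood at -0.84 and -0.71. Without the 6 Xist-positive libraries, 4 members were called lower at each dose in Apoe-/-, and 4 with oxLDL 10 and 5 with oxLDL 60 in DKO, none of them higher. These are bulk libraries, in which fewer cells that make a chemokine and less transcript per cell cannot be told apart. Within a genotype, both oxLDL comparisons share their untreated libraries.

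**Figure D2:**
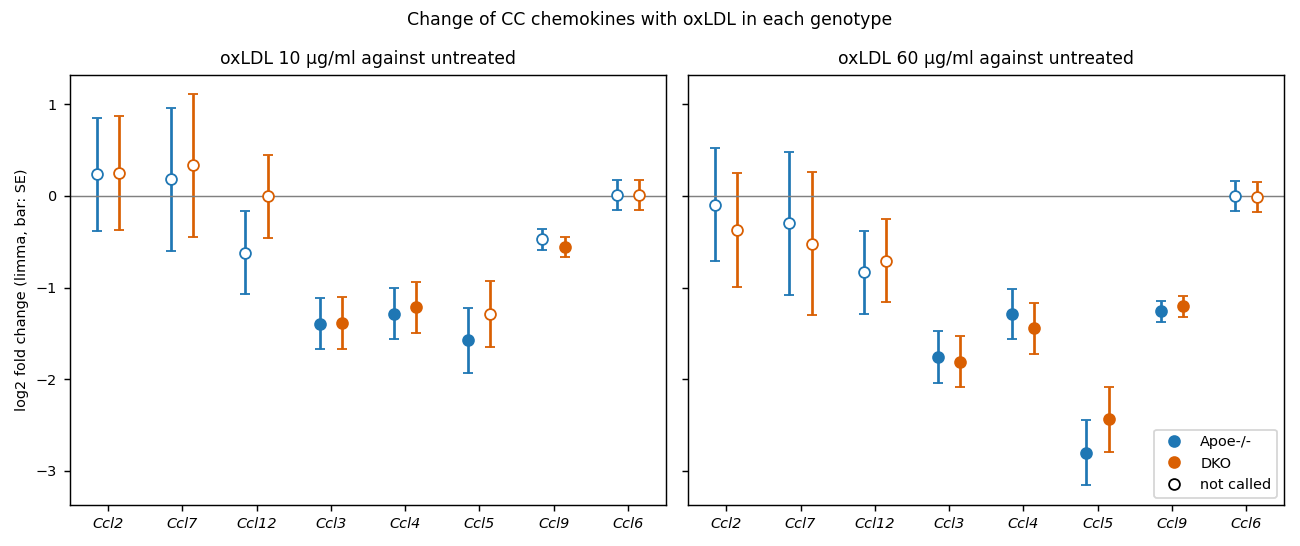
Log2 fold change of 8 CC chemokines (y axis; limma estimate, bars SE) with oxLDL 10 µg/ml (left) and oxLDL 60 µg/ml (right) against untreated cells of the same genotype (blue, Apoe-/-; orange, DKO; filled, called; open, not called). Ccl3, Ccl4, Ccl5 and Ccl9 lie below 0 in every comparison, Ccl6 sits at 0, and the bars of Ccl2 and Ccl7 are the widest.

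Ccl3 (MIP-1alpha), a chemoattractant for monocytes and T cells, fell at the low dose already. In Apoe-/- replicates 1, 2 and 3 it stood at 173, 176 and 148 RPKM untreated, 86.4, 51.6 and 55.4 with oxLDL 10, and 65.5, 37.8 and 46.8 with oxLDL 60. In DKO it stood at 221, 251 and 172 RPKM untreated, 98.3, 103 and 52.7 with oxLDL 10, and 73.0, 74.4 and 40.5 with oxLDL 60. All treated values lay below all untreated ones in either genotype, while the values of both doses overlapped. The log2 fold change with oxLDL 10 was -1.39 in Apoe-/- (SE 0.28, limma adjusted p = 0.00625) and -1.39 in DKO (adjusted p = 0.00823). With oxLDL 60 it was -1.76 in Apoe-/- (adjusted p = 0.000134) and -1.81 in DKO (adjusted p = 0.000112). From oxLDL 10 to 60 the change was -0.36 in Apoe-/- (adjusted p = 0.475), with a 95% interval of -0.96 to 0.23.

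Ccl4 (MIP-1beta), a chemoattractant and close relative of Ccl3, moved the same way at a lower level. The Apoe-/- replicates gave 57.4, 65.4 and 60.7 RPKM untreated, 33.5, 19.0 and 24.6 with oxLDL 10, and 34.2, 21.2 and 21.3 with oxLDL 60. The DKO replicates gave 75.7, 95.2 and 64.9 RPKM untreated, 43.2, 42.7 and 20.1 with oxLDL 10, and 33.0, 32.2 and 21.6 with oxLDL 60. Again no treated library reached an untreated one, and the doses overlapped. Ccl4 changed by -1.29 on the log2 scale (SE 0.28) at both doses in Apoe-/-, with limma adjusted p = 0.00935 and 0.00174. In DKO it was -1.22 with oxLDL 10 (adjusted p = 0.0170) and -1.45 with oxLDL 60 (adjusted p = 0.000777). The call of Ccl4 in DKO with oxLDL 10 was lost without DKO oxLDL 10 replicate 3 (adjusted p = 0.0581) and without DKO untreated replicate 2 (adjusted p = 0.0749), and its adjusted p ran from 9.57e-05 to 0.0919 over 16 alternatives.

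Ccl5 (RANTES), which recruits T cells and monocytes, was a low-level member and showed the largest fitted fall of the 9 with oxLDL 60. The Apoe-/- replicates gave 4.61, 12.8 and 10.0 RPKM untreated, 1.98, 3.91 and 2.70 with oxLDL 10, and 0.903, 1.00 and 1.54 with oxLDL 60. The DKO replicates gave 5.70, 5.97 and 11.2 RPKM untreated, 2.77, 2.38 and 3.74 with oxLDL 10, and 1.18, 0.941 and 1.77 with oxLDL 60. The 3 treatments did not overlap in either genotype, so that Ccl5 stepped down with dose, from a median of about 65 reads per library. The log2 fold change with oxLDL 60 was -2.80 in Apoe-/- (SE 0.36, limma adjusted p = 1.22e-05) and -2.44 in DKO (adjusted p = 5.97e-05). With oxLDL 10 it was -1.57 in Apoe-/- (adjusted p = 0.0127) and -1.29 in DKO, where it missed the threshold (adjusted p = 0.0524). Without Apoe-/- oxLDL 10 replicate 1 or untreated replicate 2, the Apoe-/- call at the low dose was lost (adjusted p = 0.0713 each, within a range of 2.56e-05 to 0.0713 over 16 alternatives). With the replicate number as a block, Ccl5 was called in DKO at the low dose (adjusted p = 0.000182, within a range of 0.000182 to 0.293). The difference between the genotypes in the change with oxLDL 60 was 0.36 (95% interval -0.70 to 1.43, adjusted p = 0.812).

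Ccl9 (MIP-1gamma), a myeloid Ccr1 ligand, was the most abundant member in untreated cells and had the tightest replicates of the 9. It stood at 411, 544 and 499 RPKM in untreated Apoe-/- cells, 329, 406 and 312 with oxLDL 10, and 198, 222 and 184 with oxLDL 60. It stood at 453, 455 and 550.0 RPKM in untreated DKO cells, 307, 336 and 345 with oxLDL 10, and 204, 216 and 209.6 with oxLDL 60. No treatment overlapped another in either genotype. The fall with oxLDL 60 was -1.26 on the log2 scale in Apoe-/- (SE 0.11, limma adjusted p = 2.48e-07) and -1.21 in DKO (adjusted p = 4.72e-07), to 0.417 and 0.434 of the untreated level. With oxLDL 10 the change was -0.47 in Apoe-/- (adjusted p = 0.0184), under the 1.4-fold limit and so not called, and -0.56 in DKO (adjusted p = 0.00853). The Apoe-/- change was called after rescaling by the median ratio (-0.54), without Xist-positive libraries (-0.50), without oxLDL 10 replicate 2 (-0.59) and without untreated replicate 1 (-0.59). Without DKO oxLDL 10 replicate 1 or untreated replicate 3, the adjusted p of the latter was 0.0518 and 0.0587, the last being the highest of 16 alternatives (lowest 0.000153).

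Ccl6 (C10), a Ccr1 ligand whose gene lies next to Ccl9 and whose window has the partial likeness to that of Ccl9 described above, was not called with oxLDL. The Apoe-/- replicates stood at 109, 144 and 130.1 RPKM untreated, 117, 153 and 116 with oxLDL 10, and 120.3, 155 and 109.7 with oxLDL 60. The DKO replicates stood at 98.3, 113 and 88.2 RPKM untreated, 99.4, 121 and 83.2 with oxLDL 10, and 102, 113 and 81.9 with oxLDL 60. The groups overlapped throughout, and in DKO replicate 2 was the highest and replicate 3 the lowest at every treatment. Its log2 fold change was 0.01 with oxLDL 10 and 0.00151 with oxLDL 60 in Apoe-/- (SE 0.17, limma adjusted p = 0.984 and 0.997), with 95% intervals of -0.34 to 0.36 and -0.35 to 0.35. In DKO the changes were 0.00811 and -0.01. An interval of this width leaves out a change as large as that of Ccl9 at the high dose.

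Ccl2 (MCP-1), the main ligand that draws Ccr2-bearing monocytes from blood, was not called in any oxLDL comparison, and its replicates spread widely. In Apoe-/- it stood at 285, 159 and 177 RPKM untreated (207 ± 68.1), 444, 89.2 and 329 with oxLDL 10 (288 ± 181) and 300.5, 113 and 194 with oxLDL 60 (203 ± 93.9). In DKO it stood at 450.0, 596 and 165 RPKM untreated (404 ± 219), 624, 662 and 179.9 with oxLDL 10 (488 ± 268) and 340.6, 374 and 160.1 with oxLDL 60 (291 ± 115). The highest replicate was 1.79-fold to 4.98-fold above the lowest within a group, and every pair of treatments overlapped. The log2 fold change with oxLDL 60 was -0.09 in Apoe-/- (SE 0.62, limma adjusted p = 0.933) and -0.37 in DKO (adjusted p = 0.720), with 95% intervals of -1.41 to 1.22 and -1.68 to 0.94. With oxLDL 10 it was 0.23 in Apoe-/- (adjusted p = 0.875) and 0.25 in DKO (adjusted p = 0.953). Without the Xist-positive libraries the oxLDL 10 change was 0.77 in Apoe-/- (SE 0.22, limma adjusted p = 0.0607) and 0.31 in DKO (adjusted p = 0.690). The oxLDL 60 change in that fit was 0.10 in Apoe-/- (limma adjusted p = 0.782) and -0.54 in DKO (adjusted p = 0.113). Taken within a replicate number, the change with oxLDL 60 was 0.08, -0.49 and 0.13 in Apoe-/- replicates 1, 2 and 3 and -0.40, -0.67 and -0.04 in DKO replicates 1, 2 and 3. With oxLDL 10 it was 0.64, -0.83 and 0.90 in Apoe-/- and 0.47, 0.15 and 0.12 in DKO, in the same order. With the replicate number as a block the SE of the oxLDL 60 change was 0.22 in both genotypes, and Ccl2 was still not called (limma adjusted p = 0.766 in Apoe-/- and 0.208 in DKO). No replicate number fell by as much as Ccl9 did at the high dose.

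Ccl7 (MCP-3), another Ccr2 ligand whose gene starts close to Ccl2, followed Ccl2 library by library. The Apoe-/- replicates gave 39.1, 20.6 and 24.1 RPKM untreated, 61.6, 9.20 and 49.8 with oxLDL 10, and 36.1, 12.2 and 23.6 with oxLDL 60. The DKO replicates gave 67.1, 107 and 20.3 RPKM untreated, 107, 122 and 22.5 with oxLDL 10, and 49.3, 61.5 and 16.3 with oxLDL 60. The ratio of Ccl2 to Ccl7 stayed between 5.43 and 9.81 in all 18 libraries, although Ccl7 itself ranged from 9.20 to 122 RPKM. The log2 fold change with oxLDL 60 was -0.30 in Apoe-/- (SE 0.78, limma adjusted p = 0.815) and -0.52 in DKO (adjusted p = 0.684). With oxLDL 10 it was 0.18 in Apoe-/- (adjusted p = 0.929) and 0.33 in DKO (adjusted p = 0.949). Without the Xist-positive libraries the oxLDL 10 change was 0.85 in Apoe-/- (SE 0.24, limma adjusted p = 0.0570) and 0.43 in DKO (adjusted p = 0.555).

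Ccl12 (MCP-5), a mouse Ccr2 ligand, was present at a far lower level. Its Apoe-/- replicates gave 6.02, 5.48 and 7.26 RPKM untreated, 5.75, 1.83 and 6.01 with oxLDL 10, and 5.13, 2.07 and 3.80 with oxLDL 60. Its DKO replicates gave 6.41, 8.94 and 3.95 RPKM untreated, 7.87, 8.75 and 3.27 with oxLDL 10, and 3.38, 5.40 and 2.77 with oxLDL 60. In Apoe-/- all values with oxLDL 60 lay below all untreated values, and in DKO the treatments overlapped. The log2 fold change with oxLDL 60 was -0.84 in Apoe-/- (SE 0.45, limma adjusted p = 0.181) and -0.71 in DKO (adjusted p = 0.286). With the replicate number as a block the same changes were called, with limma adjusted p = 0.00471 in Apoe-/- (range 0.00471 to 0.510 over 16 alternatives) and 0.0153 in DKO (range 0.00935 to 0.605).

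Ccl8 (MCP-2) and Ccl24 could be read only as a handful of reads. Whole reads recovered from the steps of the RPKM values gave Ccl8 4, 9 and 7 reads in the untreated Apoe-/- replicates, 0, 2 and 2 with oxLDL 10, and 2, 2 and 4 with oxLDL 60. In DKO the counts were 0, 7 and 3 untreated, 1, 7 and 1 with oxLDL 10, and 1, 0 and 1 with oxLDL 60. Ccl8 was not called in any comparison, and with the replicate block it was called with oxLDL 10 in Apoe-/- (adjusted p = 0.0225, the lowest of 15 alternatives, which ran to 0.337), a call that rests on these few reads. Ccl24 had 0 to 3 reads in a library and 16 in all 18, so any difference was not detectable at this depth.

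From oxLDL 10 to oxLDL 60, 2 members were called lower in each genotype, Ccl5 and Ccl9, and none higher. In Apoe-/- 3.54% of all genes were called lower and 2.91% higher. The change was -1.23 for Ccl5 (SE 0.36, limma adjusted p = 0.0289) and -0.79 for Ccl9 (SE 0.11, adjusted p = 0.000139). In DKO it was -1.15 for Ccl5 (adjusted p = 0.0370) and -0.65 for Ccl9 (adjusted p = 0.000848), where 3.74% of all genes were called lower and 1.92% higher. The DKO background was 246 genes higher and 480 lower, and 361 and 360 once libraries were rescaled by their median ratio. The call of Ccl5 was lost in Apoe-/- without oxLDL 10 replicate 2 or 3 or oxLDL 60 replicate 1 or 2, and in DKO without any oxLDL 10 replicate or oxLDL 60 replicate 1 or 2, with adjusted p up to 0.113 and 0.144. It was also lost in Apoe-/- without the Xist-positive libraries (-0.91, limma adjusted p = 0.0579), where Ccl7 was called lower in its place (-0.92, adjusted p = 0.0237), so that the count stayed at 2. With the replicate block, DKO had 5 members called lower, adding Ccl2 (-0.62, adjusted p = 0.0474), Ccl7 (-0.85, adjusted p = 0.0252) and Ccl12 (-0.70, adjusted p = 0.0217). Over their 16 alternatives these adjusted p ran from 0.0239 to 0.880 for Ccl2, from 0.0117 to 0.890 for Ccl7 and from 0.00646 to 0.645 for Ccl12. The share of all genes called in DKO with the replicate block is not given here.

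The replicates of most members, and of Ccl2 and Ccl7 above all, spread more widely than those of most genes. The within-group SD of Ccl2 was 0.89 on the log2 scale (95% interval 0.64 to 1.47, 12 degrees of freedom), next to a median of 0.12 over all genes tested. It was larger than that of 99.1% of the 12838 genes and of 99.6% of the 549 genes with a mean of at least 100 RPKM. Ccl7 had an SD of 1.12 and Ccl12 of 0.65, whereas Ccl9 had 0.15 and Ccl6 0.23. Ccl5 (0.50), Ccl3 (0.40) and Ccl4 (0.39) lay between them, and these too were above the SD of 96.5%, 93.9% and 93.6% of genes. With a median near 10560 reads of Ccl2 per library, counting error is a small part of this spread.

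**Figure D3:**
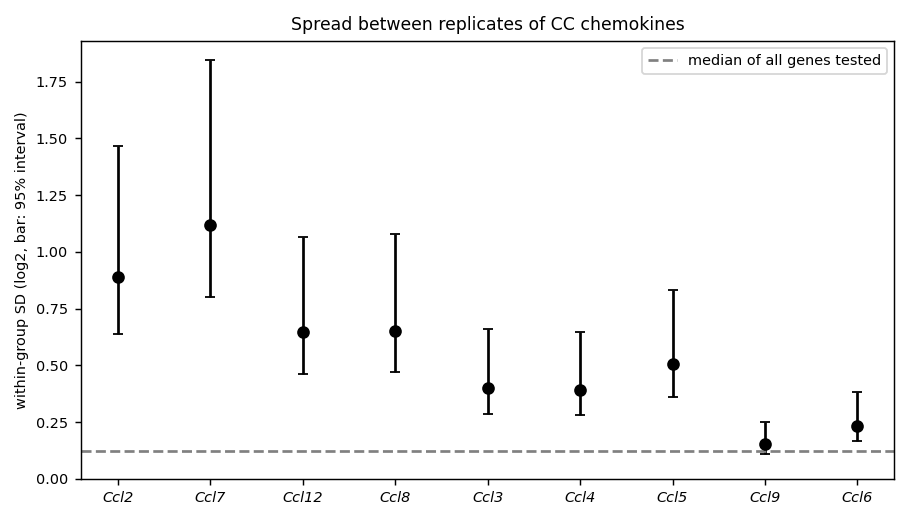
Within-group SD of log2(RPKM + 0.1) (y axis, from 0) for the 9 tested CC chemokines over 18 libraries, with 95% chi-square intervals as bars and the median of all genes tested as a dashed line (0.12). Ccl7 (1.12) and Ccl2 (0.89) stand highest and Ccl9 (0.15) lies next to the line.

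The spread of Ccl2 followed the replicate number. Of its within-group sum of squares, 88.5% was shared by libraries of 1 genotype with the same number, above the share of 95.5% of genes (median 52.2%). Averaged over the treatments on the log scale, Ccl2 was 336, 117 and 224 RPKM in Apoe-/- replicates 1, 2 and 3 and 457, 528 and 168 RPKM in DKO replicates 1, 2 and 3. The Xist-positive numbers were thus the lowest of each genotype. In each of the 6 groups the Xist-positive library was the lowest for Ccl2, Ccl7 and Ccl12, and in 5 of 6 groups the lowest for Ccl3 and Ccl4. For Ccl5 and Ccl9 it was the highest in 5 of 6 groups, and for Ccl6 it was the highest in the 3 Apoe-/- groups and the lowest in the 3 DKO groups. A term for the Xist-positive libraries came to -1.39 for Ccl2, -1.76 for Ccl7, -0.97 for Ccl12, -0.51 for Ccl3 and -0.48 for Ccl4 on the log2 scale, and to 0.60 for Ccl5 and 0.20 for Ccl9. Without those libraries the within-group SD of Ccl2 was 0.32. Each genotype has 1 such replicate number, so the sex of the donor and the culture cannot be told apart.

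**Figure D4:**
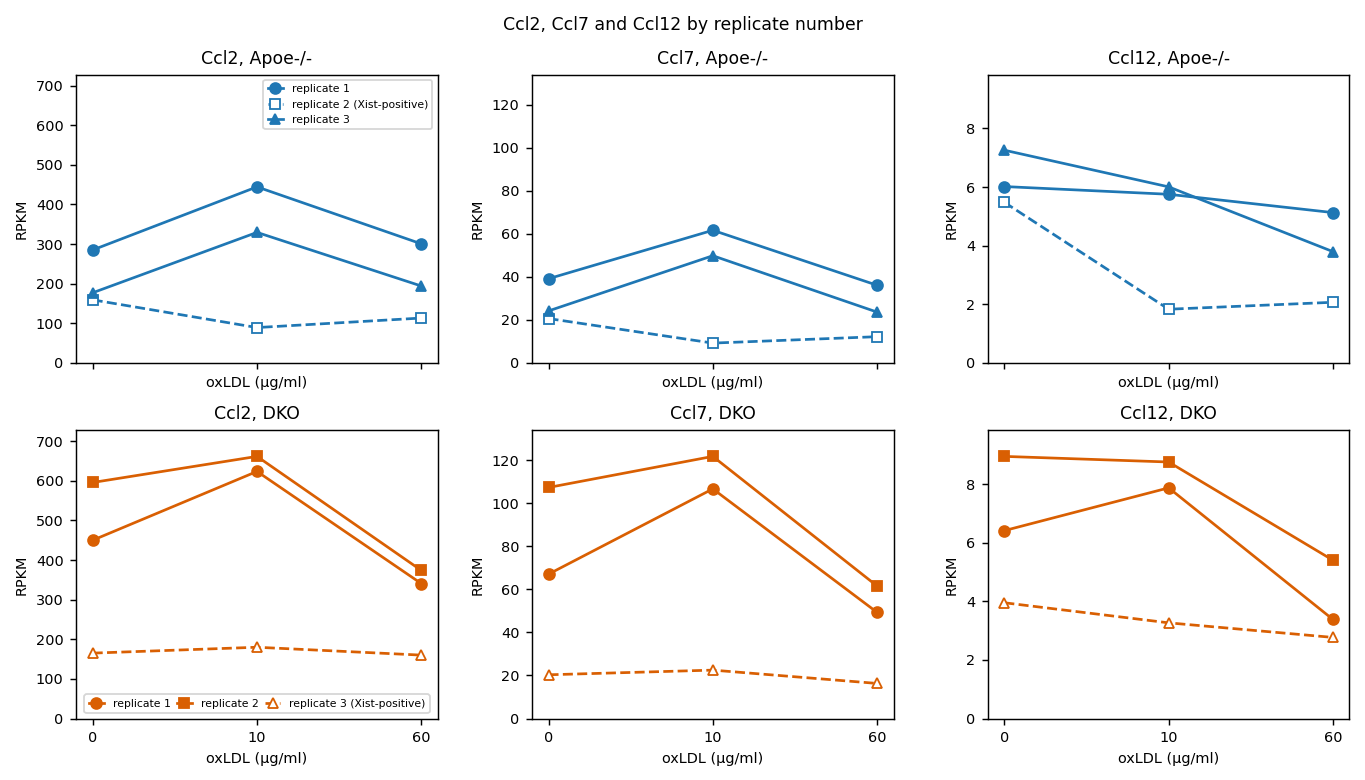
RPKM (y axis, from 0) of Ccl2, Ccl7 and Ccl12 at 0, 10 and 60 µg/ml oxLDL (x axis, evenly spaced) for replicate numbers 1 (circles), 2 (squares) and 3 (triangles) in Apoe-/- (top) and DKO (bottom), with the Xist-positive number dashed and open. The dashed line is the lowest at every dose in all 6 panels.

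Across the 18 libraries, deviations from the group means of Ccl2 ran with those of Ccl7 (Pearson r = 0.995), Ccl12 (0.931), Ccl4 (0.861) and Ccl3 (0.859), and against those of Ccl5 (-0.760) and Ccl9 (-0.736). They had little relation to Ccl6 (0.058) and Ccl8 (-0.044). These correlations are descriptions over libraries that share replicate numbers. Among 10094 other genes with a mean of at least 1 RPKM, the 5 whose deviations were most like those of Ccl2 were Slc20a1 (a phosphate transporter, r = 0.989), Plau (urokinase, 0.984), Asns (asparagine synthetase, 0.977), Aldh18a1 (proline synthesis, 0.976) and Cdk17 (0.972).

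Some markers of other cell types moved with the same libraries. The 4 stromal markers Col1a1, Col1a2, Pdgfrb and Cdh5 summed to 0.736 to 1.53 RPKM in the Xist-positive libraries and to 3.29 to 13.1 RPKM in the others, and their sum was lowest in the Xist-positive library of all 6 groups. The first 3 followed Ccl2 within groups (r = 0.841, 0.861 and 0.764) and Cdh5 did not (-0.105). By group the stromal sum was 1.19 to 12.8, 0.972 to 13.1 and 0.736 to 12.4 RPKM in Apoe-/- without oxLDL, at 10 and at 60 µg/ml, and 1.53 to 5.17, 1.42 to 4.56 and 1.02 to 3.54 RPKM in DKO. The 5 neutrophil markers (S100a8, S100a9, Ly6g, Mpo, Elane) summed to 25.1 to 31.6 RPKM in the Xist-positive libraries and to 33.6 to 70.7 in the others, almost wholly S100a8 and S100a9, with Ly6g at most 0.0260. S100a8, S100a9 and Elane ran with Ccl2 within groups (r = 0.729, 0.760 and 0.583). Mpo and Ly6g had little relation to it (0.223 and 0.057). Mpo was lowest in the Xist-positive library of 3 groups and Ly6g in that of 1 group. The 7 macrophage markers summed to their highest value in the Xist-positive library of all 6 groups, and that sum ran against Ccl2 (r = -0.895). Most of the sum was Lyz2 (5504 to 9911 RPKM in the Xist-positive libraries, r = -0.893). Adgre1, Csf1r and Itgam were also highest in that library of all 6 groups (r = -0.827, -0.822 and -0.867). Mertk and Fcgr1 were highest there in 4 groups (-0.508 and -0.462). Cd68 was highest there in 3 groups and lowest in 3 (0.181). The macrophage sum, which is mostly Lyz2, was also lower with oxLDL 60, without overlap. It was 8614 to 11352 RPKM untreated and 6423 to 8353 with oxLDL 60 in Apoe-/-, and 8058 to 10530.0 and 5458 to 7042 in DKO. Its part in the falls of Ccl3, Ccl4, Ccl5 and Ccl9 was not tested. No marker was at 0 in all libraries, and the part of these cell types in the spread of Ccl2 was not tested.

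Deletion of Treml4 on the Apoe-/- background addressed whether the receptor sets the level of these chemokines, and no member was called between DKO and Apoe-/- at any treatment. Genes called in either direction made up 0.21% of all genes tested when untreated, 0.0857% with oxLDL 10 and 0.125% with oxLDL 60, so that few calls were made anywhere in these comparisons. At an unadjusted limma p under 0.05 there were 2225, 1252 and 1011 genes, and 1 of the 9 members each time, Ccl6. The untreated calls were 22 higher and 5 lower in DKO, and 14 and 9 after rescaling by the median ratio. Ccl7 was 0.97 higher on the log2 scale in DKO when untreated, 1.12 with oxLDL 10 and 0.75 with oxLDL 60 (SE 0.78 each, limma adjusted p = 0.531, 0.633 and 0.826). Ccl3 was 0.36, 0.37 and 0.31 higher (SE 0.28) and Ccl4 was 0.34, 0.41 and 0.19 higher (SE 0.28), with adjusted p from 0.516 to 0.886. Ccl6 was lower by a like amount at each treatment, at -0.35, -0.35 and -0.37 (SE 0.17), with limma adjusted p = 0.288, 0.507 and 0.621. The 3 treatments of Ccl6 rest on the same replicate numbers and are not separate evidence. Ccl9 differed by -0.08 to 0.06, with 95% intervals that lay between -0.32 and 0.30.

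Taken by replicate number, with the treatments averaged, Ccl2 was 0.73 higher on the log2 scale in DKO than in Apoe-/-. An exact two-sided permutation test of these 3 against 3 values gave p = 0.30, where 0.10 is the smallest this design allows. Without the Xist-positive libraries, which leaves 2 libraries in a group, 308 of all genes tested were called between genotypes in untreated cells. With all 18 libraries 27 were called. Among the 308, Ccl2 was called higher in untreated DKO cells (log2 fold change 1.20, SE 0.22, limma adjusted p = 0.00975), as was Ccl7 (1.46, SE 0.24, adjusted p = 0.00540). Over 16 alternatives their adjusted p ran from 0.00975 to 0.809 and from 0.00540 to 0.841. No member was called with oxLDL 10 or 60 in those libraries, where Ccl2 stood 0.75 and 0.56 higher (adjusted p = 0.159 and 0.440) and Ccl7 1.04 and 0.91 higher (adjusted p = 0.0651 and 0.142). Among those libraries the stromal sum was 7.36 to 13.1 RPKM in Apoe-/- and 3.29 to 5.17 in DKO, and the neutrophil sum was 33.6 to 41.8 and 39.2 to 70.7. The Ccl6 difference shrank to -0.17, -0.09 and -0.09 in the same fit.

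**Figure D5:**
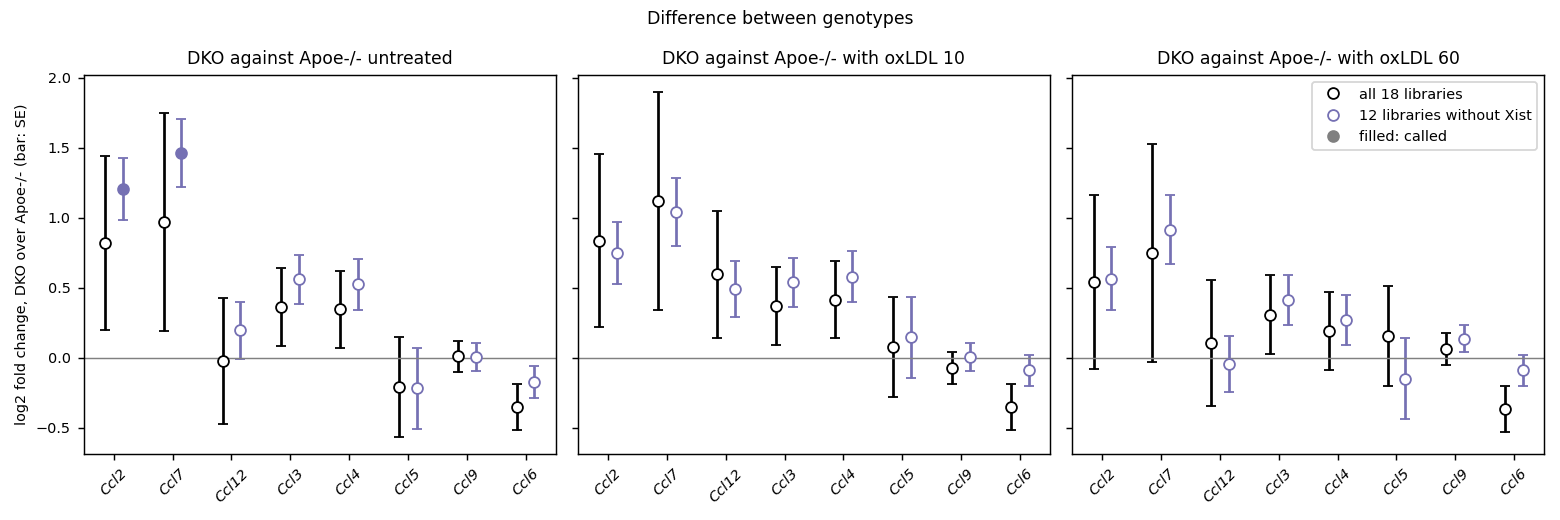
Log2 fold change of 8 CC chemokines in DKO over Apoe-/- (y axis; limma estimate, bars SE) untreated, with oxLDL 10 and with oxLDL 60 µg/ml, from all 18 libraries (black) and from the 12 libraries without Xist (purple; filled, called). The filled points are Ccl2 (1.20) and Ccl7 (1.46) in untreated cells, and the black bars of both genes are wider than the purple ones.

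The change with oxLDL was also compared between genotypes. No member was called for this interaction at either dose, where 0% of all genes tested were called with oxLDL 10 and 0.0156% with oxLDL 60. At an unadjusted p under 0.05 there were 246 genes with oxLDL 10 and 1256 with oxLDL 60, none of them members. With oxLDL 60 the 95% interval of the difference was -0.28 to 0.40 for Ccl9 and -0.89 to 0.79 for Ccl3, and it was far wider for Ccl2, at -2.13 to 1.58. Rescaling by the median ratio moved the median of all genes by 0.119 in this comparison, from -0.114 to 0.00528.

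Beside the 10 members, 9 other CC ligand genes had a row, of which 4 were tested. With oxLDL 60, 2 were called lower in both genotypes, Ccl22 and, near the limit of detection, Ccl17. Of all genes tested, 6.78% were called lower in Apoe-/- and 7.31% in DKO. Ccl22, a Ccr4 ligand made by macrophages and dendritic cells, went from 3.32 ± 1.42 to 0.255 ± 0.0758 RPKM in Apoe-/- and from 3.23 ± 1.87 to 0.328 ± 0.141 in DKO. Its log2 fold change was -3.21 (SE 0.45, limma adjusted p = 3.61e-05) in Apoe-/- and -2.87 (adjusted p = 0.000125) in DKO. Ccl17, another Ccr4 ligand, lay at or under 0.356 RPKM in every library and changed by -1.52 in both genotypes (adjusted p = 0.00109 and 0.00132). Its means were 0.266 RPKM in Apoe-/- and 0.222 in DKO untreated, and 0.0263 and 0.0130 with oxLDL 60. The treated means lie under 0.0554 RPKM, the lowest value of 3 reads over 1 kb. Ccl17 thus passed the filter mainly through its untreated libraries, and its calls rest on few reads. The other 2 tested, Ccl25 and Ccl27a, were not called, and 5 stayed below the filter.

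Among the CC receptors, Ccr2 and Ccr3 were called lower with oxLDL 60 in both genotypes and Ccr1 was not called. Ccr2, the receptor of Ccl2, Ccl7 and Ccl12, went from 9.78 ± 2.22 to 2.88 ± 0.390 RPKM and from 10.3 ± 2.75 to 3.16 ± 0.920 (log2 fold change -1.71 in Apoe-/- and -1.67 in DKO, SE 0.22, limma adjusted p = 1.44e-05 and 2.16e-05). Ccr3, a receptor of Ccl5 and Ccl24, went from 1.53 ± 0.285 to 0.554 ± 0.0481 and from 1.57 ± 0.317 to 0.678 ± 0.167 RPKM (-1.31 and -1.11, adjusted p = 6.44e-05 and 0.000360). Ccr1, the receptor of Ccl6 and Ccl9, was not called, at -0.04 in Apoe-/- (adjusted p = 0.905) and -0.30 in DKO (adjusted p = 0.311). None of these 3 receptors was called with oxLDL 10 in either genotype, and neither they nor the other ligands were called between genotypes at any treatment. The 3 atypical receptors with a row (Ackr1, Ackr2 and Ackr4) stayed below the filter.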

How the data were processed

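RNA sequencing libraries from 18 cultures of mouse BMDM, 3 replicates of 6 groups, were analysed from the 1 deposited gene table. According to the study's methods and the submitters' processing notes, reads were aligned with STAR to mm10. The authors deposited RPKM per gene symbol, which divides reads by gene length and library total, so strong changes of a few abundant genes shift all others. The methods list RnaSeqC and Subread without saying which gave the RPKM, and the gene annotation is not given in the sources used here. Reads per library were estimated from the spacing of low RPKM values with GENCODE M21 exon lengths, over 1805 genes, and the 3-read floor covers counting error only.

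RPKM are not counts, so log2(RPKM + 0.1) was tested with limma 3.58.1 (R 4.3.3; lmFit, eBayes with trend), a single mean per group over 18 libraries, for the 12838 of 18668 genes that reached 0.1 RPKM in 3 or more libraries, with Benjamini-Hochberg adjustment within each of 11 comparisons. Fold changes on this scale understate those of low genes. The script was tested on simulated data. Calls needed adjusted p under 0.05 and 1.4-fold, the limits that the study's methods set for mouse data. Ccl2 was also compared by replicate number with an exact permutation test. Intervals of log2 changes are 95% limma intervals.

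Replicates are labelled as biological, without saying whether the same number marks 1 animal. Deviations from group means correlated for all 18 same-number pairs within a genotype (r 0.183 to 0.695, median 0.405). The median was -0.347 for other numbers, but deviations cancel out within each group, so that value follows from the same-number pairs and is not separate evidence. A replicate block, which takes the numbers as pairs within a genotype, was therefore run as an alternative. The main fit held no block, and its SE of the oxLDL changes of Ccl2 was 0.62, against 0.22 with the block. Same-numbered libraries of different genotypes had a median r of -0.168.

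Named genes were the 10 members, other CC ligands and receptors called with oxLDL 60 (not all of which are reported here), the 5 genes with a mean of at least 1 RPKM whose deviations were most like those of Ccl2, and check genes. The members and lists were chosen with earlier results of these data known. Alternatives were pseudocounts of 1 and 0.01, no filter and a filter of 1 RPKM, rescaling by the median ratio, no fold limit, the compared groups alone, the replicate block, a term for or removal of Xist-positive libraries, and removal of each library. Sequences came from RefSeq tables for GRCm38.p6.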

Additional observations from a re-analysis of the deposited data

How the results depend on the processing

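The falls of Ccl3, Ccl4, Ccl5 and Ccl9 with oxLDL 60 were called in both genotypes under every alternative run, and no member was called for the interaction or, with oxLDL 10 or 60, between genotypes. The depth limits Ccl8 and Ccl24, and the wide spread between replicates limits Ccl2 and Ccl7 in the main fit. Over the 58 results of single members that were followed, 845 of 933 alternative values kept their direction and their side of the threshold, 23 lost the call, 27 gained it and 38 changed sign, the latter all for values that were never called.

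From oxLDL 10 to 60, 2 members were called in Apoe-/-, and 1 with a pseudocount of 1, 1 without the filter and 1 to 2 when single libraries were left out. In DKO the count of 2 became 1 with a pseudocount of 1, 1 without the filter, 1 after rescaling, 5 with the replicate block, 5 without Xist-positive libraries and 1 to 2 when single libraries were left out. Between genotypes in untreated cells 0 members became 2 without Xist-positive libraries, where the count over all genes went from 27 to 308. The within-group SD of Ccl2 went from 0.89 to 0.32 without those libraries. The Ccl2 difference by replicate number kept its sign throughout. The cause of these moves was not tested. The fits that leave some libraries out also rest on fewer libraries. Besides the calls given with the results, the replicate block, which treats same-numbered libraries of a genotype as pairs, changed no other call of a member.

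Changes near 0 changed sign as follows. After rescaling, Ccl6 was -0.052 and -0.059 with oxLDL 10 and 60 in Apoe-/- and -0.010 and 0.050 in DKO. Without Xist-positive libraries, Ccl6 was -0.027 and -0.050 in Apoe-/- and 0.032 with oxLDL 60 in DKO, Ccl2 was 0.10 with oxLDL 60 in Apoe-/- and Ccl12 was 0.13 with oxLDL 10 in DKO, where a pseudocount of 1 gave 0.0054. With single libraries left out, the change with oxLDL 10 in Apoe-/- ran from -0.22 to 0.93 for Ccl2, -0.12 to 0.10 for Ccl6 and -0.33 to 1.04 for Ccl7. With oxLDL 60 in Apoe-/- it ran from -0.43 to 0.27 for Ccl2, -0.14 to 0.11 for Ccl6 and -0.66 to 0.12 for Ccl7. With oxLDL 10 in DKO it ran from -0.30 to 0.86 for Ccl2, -0.13 to 0.14 for Ccl6, -0.35 to 1.11 for Ccl7 and -0.31 to 0.44 for Ccl12. With oxLDL 60 in DKO it ran from -0.92 to 0.012 for Ccl2, -0.12 to 0.12 for Ccl6 and -1.21 to 0.063 for Ccl7.

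Counts over all genes moved most in the genotype comparisons, from 27, 11 and 16 genes (untreated, oxLDL 10 and oxLDL 60) to 308, 110 and 74 without Xist-positive libraries, 172, 75 and 49 when the Xist state was a term of the model and 13, 4 and 3 with the compared groups alone. The untreated count was 17 without the filter, 42 with the replicate block, 51 without the fold limit and 12 to 75 with single libraries left out, and the oxLDL 60 count fell to 8 without Apoe-/- replicate 3 or DKO replicate 2. Without the fold limit the oxLDL counts rose from 358, 1786 and 829 to 904, 3873 and 1731 in Apoe-/- (oxLDL 10, oxLDL 60 and 60 against 10), and from 290, 1564 and 726 to 510, 3319 and 2000 in DKO. In DKO with oxLDL 10 it was 449 with the block, 186 without oxLDL 10 replicate 2 and 185 without untreated replicate 3. The interaction counts lay between 0 and 5.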
